A study of Mus musculus with 20 samples.

Results

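Kinesins, dyneins and tubulins are the motors and the track of the meiotic spindle, and their transcripts were followed here through the first hours of meiotic resumption in mouse oocytes. The genes were taken by symbol: every gene listed in either deposited table whose symbol starts with Kif and a digit, with Dync, Dynl or Dctn, or with Tuba, Tubb or Tubg and a digit. This gave 50 of the 8114 genes listed in either table, of which 50 were in the table of ribosome-bound mRNA and 48 in that of total RNA (Dctn6 and Kif15 were in the former table alone). GENCODE vM21 annotates 78 protein-coding genes that meet the same rule, and those not listed in the tables were not analysed here. The 50 genes fall into 11 spindle and cytokinesis kinesins, 15 transport and other kinesins, 8 dynein chains, 5 dynactin subunits and 11 tubulins. Kif1bp, which encodes a binding partner of kinesins and is not a motor itself, comes in through its symbol.

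A spindle is built from microtubules, which are polymers of alpha- and beta-tubulin that gamma-tubulin complexes nucleate. Kinesins walk along microtubules or take their ends apart, and dynein, with its activator dynactin, moves the other way and focuses the spindle poles. The oocyte of the mouse has no centrioles and does not transcribe while it resumes meiosis, so it assembles its spindle from stored proteins and from stored mRNAs whose use on ribosomes can change.

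The oocytes came from 3-week-old C57BL/6 females carrying RiboTag, an HA-tagged ribosomal protein switched on by Zp3-Cre, a recombinase driven by an oocyte promoter, so that pulling down the tag recovers mRNA on oocyte ribosomes. All groups share this genotype, priming with 5 IU of PMSG for 44 h, removal of the cumulus cells, and arrest with 1 µM cilostamide, a phosphodiesterase inhibitor. Each sample held 200 oocytes, taken at prophase I (0 h, still arrested), or at 2, 4, 6 or 8 h after release, from early prometaphase I to metaphase I. Ribosome-bound mRNA and total RNA were each sequenced in 2 replicates per time, which makes 10 groups and 20 libraries. For the total RNA samples, 1 label field uses the words for ribosome-bound RNA while the titles say input; the titles, which match the design, were used. A poly(A) selection step is neither stated nor excluded in the labels.

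Depth, inferred from the step between neighbouring values, ran from 27571236 to 51714900 reads per library in listed genes, so that about 282 to 533 reads would lie behind a value of 10. These read numbers are an inference from the values, and no test used them. Values are CPM that the authors scaled by a factor for each library. They are shares of a library. A change in a gene's own molecules and a change in those of other genes therefore cannot be told apart. Among the ribosome-bound libraries, 4 h replicate 1 stood apart on the next axis after time (-35.2, with the next lowest at -4.88, on an axis of 12.5% of the variance). In total RNA the 8 h libraries lay at 37.4 and 19.8 on the first axis (28.4% of the variance), above the other 8, and apart from each other on the next (-20.2 and 25, axis of 14.2%), and the total RNA and interaction results at 8 h rest on them. The 12 oocyte markers were all listed on ribosomes, and their summed value there was 52298 and 42444 at 0 h and 23189 and 26119 at 8 h. In total RNA 11 were listed, with sums of 16397 and 15919 and then 17053 and 15935. Of 18 granulosa and cumulus markers 4 were listed on ribosomes (Cyp19a1, Fshr, Nr5a2, Serpine2), with Foxl2, Amh and Amhr2 not listed. The summed value of those 4 on ribosomes was 199 and 207 at 0 h and 524 and 529 at 8 h. In total RNA 6 were listed, with Inha and Inhba beside those 4. Their sum was 389 and 324 at 0 h and 428 and 550 at 8 h. Of 12 blood, stroma and endothelium markers 2 were listed (Pecam1 and Tek). Their sum on ribosomes was 155 and 189.5 at 0 h and 106 and 162 at 8 h. A sum does not show which of its genes changed. The part of any marker list in the changes below was not tested. Nothing in the labels says that the 2 replicates of a group came from separate animals or cultures. The p-values therefore cover only the spread between these samples, which may be technical.

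On ribosomes at metaphase I, the spindle kinesins were mostly higher than at prophase I and the tubulins mostly lower. Of the 50 genes, 8 rose and 21 fell at 8 h against 0 h at an adjusted p of 0.05, against a background of 42.1% of all 7543 genes called (20.2% up and 21.8% down). Among spindle and cytokinesis kinesins 7 of 11 rose and 1 fell, and among tubulins 10 of 11 fell and none rose. The role groups were set with earlier results of these data known, and some tubulins share sequence (both described below). For the dynein chains 5 of 8 fell, and for dynactin 3 of 5, with none rising. The transport kinesins had the fewest calls for their number, with 1 rising and 2 falling of 15. Median log2 changes were 0.66 for spindle kinesins, 0.02 for transport kinesins, -0.93 for dynein chains, -0.86 for dynactin and -1.09 for tubulins, where the median over all genes was -0.06. Corrected for length and GC (described below), the medians were 0.26 for spindle kinesins and -0.47 for tubulins, with 5 and 6 of 11 still past the threshold in those directions. Without 0 h replicate 2 or 8 h replicate 1, 3 dynein chains and 1 dynactin subunit passed. Of the 50 genes, 39 had a value of at least 10 in every ribosome-bound library, and all 50 entered the test.

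**Figure D1:**
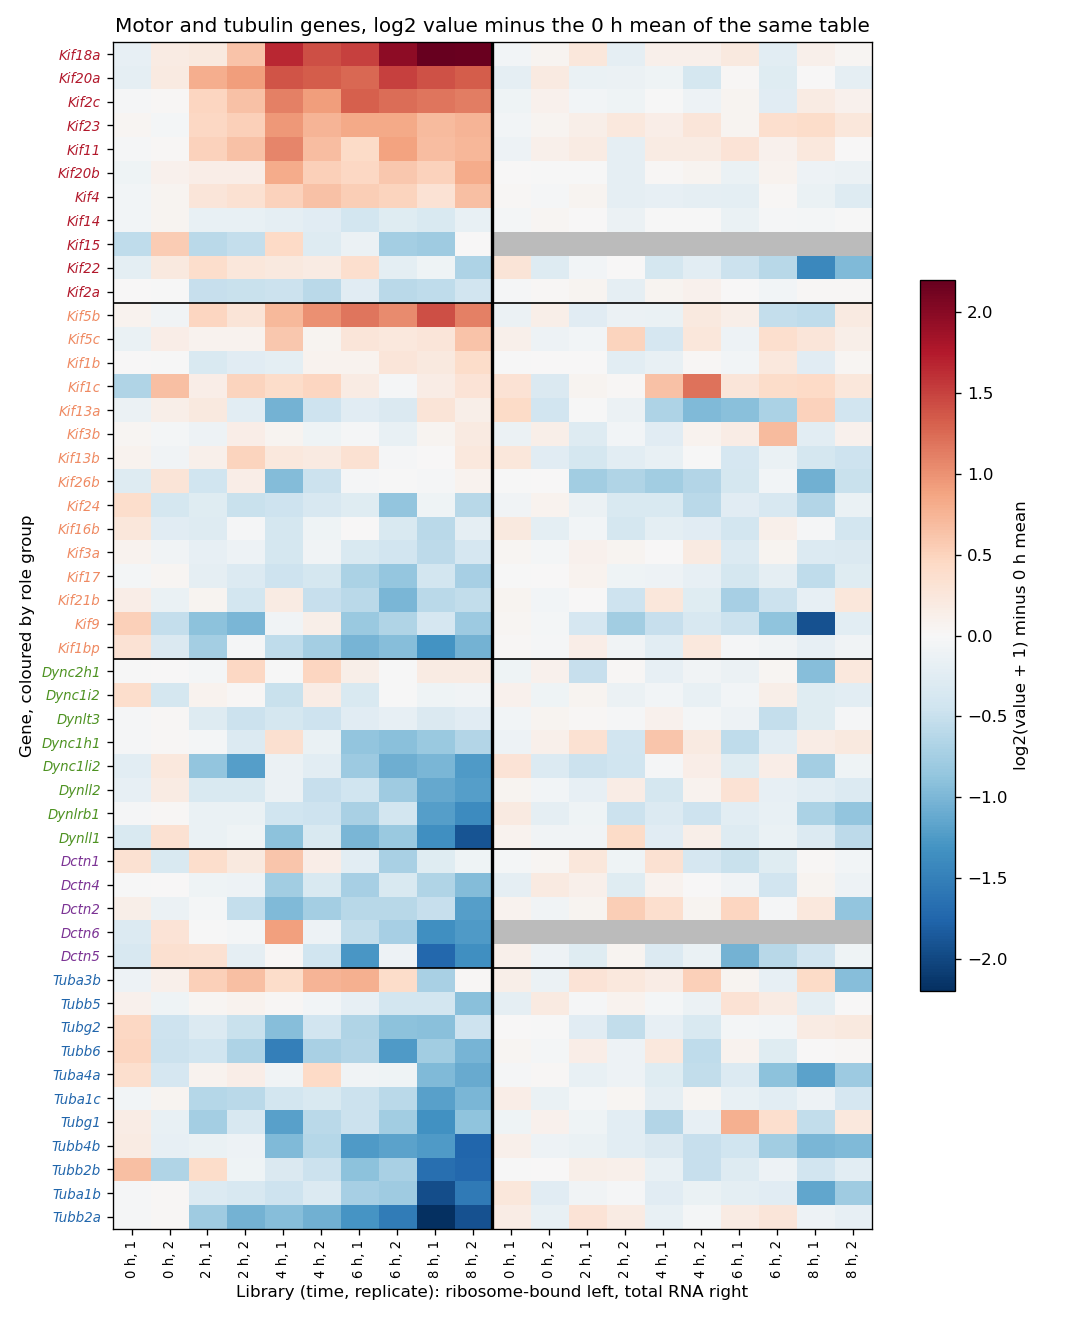
Heat map of the 50 genes (rows, names coloured by role group and separated by black lines) in the 20 libraries (columns: 10 ribosome-bound on the left, 10 of total RNA on the right, labelled by time and replicate). Colour gives log2(value + 1) minus the mean of the 0 h libraries of the same RNA kind, and grey rows were not listed in total RNA. Red in the upper left block and blue in the lower left block grow with time, and the total RNA side is paler.

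Kif18a, a kinesin that dampens chromosome movement at microtubule plus ends, had the largest rise of the 50 genes on ribosomes. Its ribosome-bound values were 33.3 and 43.5 at 0 h (replicates 1 and 2), 44.4 and 59.2 at 2 h, 122 and 103 at 4 h, 109.8 and 151 at 6 h, and 191 and 175 at 8 h. Both libraries at 4, 6 and 8 h lay above both at 0 h. The log2 change at 8 h was 2.23 ± 0.22 (limma standard error here and below, n = 2 libraries per group; adjusted p 7.28e-07), which is a 4.70-fold rise. In total RNA its values stayed within 60.1 to 84.4 over all 10 libraries, with 67.4 and 73.7 at 0 h and 76.1 and 73.0 at 8 h. Kif18a (ENSMUSG00000027115.14) lies on mm10 chromosome 2, 109280738 to 109341747.

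Kif20a, the MKLP2 kinesin that carries the chromosomal passenger complex to the spindle midzone, was the only one of these kinesins past the threshold at 2 h. On ribosomes it was at 39.7 and 52.3 at 0 h, 79.8 and 87.4 at 2 h, 121 and 116 at 4 h, 110.2 and 131 at 6 h, and 121 and 116 at 8 h. It had reached its later level by 4 h, and the 2 h and 0 h libraries did not overlap. The change was 0.86 ± 0.20 at 2 h (adjusted p 0.0354) and 1.36 ± 0.20 at 8 h (adjusted p 3.82e-05). The 2 h change no longer passed when 0 h replicate 1 (0.67), 2 h replicate 1 (0.93) or 2 h replicate 2 (0.80) was left out, and when the 4 libraries were fitted alone (adjusted p 0.126).

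Kif2c encodes MCAK, which takes microtubule ends apart and corrects faulty kinetochore attachments. Its libraries on ribosomes gave 111 and 116 at 0 h, 157 and 179 at 2 h, 245 and 215 at 4 h, 285 and 266 at 6 h, and 258 and 248 at 8 h. It rose by 1.15 ± 0.16 at 8 h (adjusted p 1.94e-05), with no overlap between the groups from 2 h on. Its relative Kif2a went the other way, from 266 and 263 at 0 h to 179.6 and 198 at 8 h. That change of -0.49 ± 0.16 (adjusted p 0.0223) no longer passed when 0 h replicate 1 (-0.48), 0 h replicate 2 (-0.50) or 8 h replicate 1 (-0.42) was left out, and was -1.18 (adjusted p 2.39e-05) with the correction for length and GC content described below.

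Kif23, the MKLP1 kinesin of the centralspindlin complex, was the kinesin with the highest level per kilobase of exon on ribosomes at 0 h. Its values were 1036 and 975 at 0 h, 1374 and 1437 at 2 h, 1939.8 and 1688 at 4 h, 1799 and 1786 at 6 h, and 1628 and 1688 at 8 h. Every later library lay above both at 0 h. The highest was 4 h replicate 1, the library that stood apart, while 4 h replicate 2 lay below both at 6 h. The 8 h change was 0.72 ± 0.12 (adjusted p 0.000178). Its total RNA values were 681 and 747 at 0 h and 942 and 851 at 8 h, a difference of 0.33 ± 0.13 that did not pass (adjusted p 0.164).

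Kif11, Kif20b and Kif4 rose less. Kif11, or Eg5, pushes spindle poles apart and went from 111 and 116 at 0 h through 162 and 178, 240.3 and 183, and 153 and 210.5 to 183 and 189 at 8 h. Its 8 h change was 0.70 ± 0.19 (adjusted p 0.00565). Kif20b, a kinesin of cytokinesis, had 335 and 385 at 0 h, 397 and 397 at 2 h, 629.6 and 516 at 4 h, 494 and 540.4 at 6 h, and 513 and 629.7 at 8 h, with a change of 0.66 ± 0.15 (adjusted p 0.00205). Kif4, a chromokinesin of chromosome arms and the midzone, had 629 and 689 at 0 h, 796 and 828 at 2 h, 937 and 1030.4 at 4 h, 954 and 919 at 6 h, and 819.7 and 1038 at 8 h. In all 3 genes the 8 h libraries lay above those at 0 h. The Kif4 change of 0.49 ± 0.14 (adjusted p 0.00904) was 0.32 without 8 h replicate 2 (adjusted p 0.136). With the correction for exon length and GC content described below, Kif11 was at 0.26 (adjusted p 0.27) and Kif20b at 0.02 (adjusted p 0.911).

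The other 3 spindle kinesins did not pass at 8 h on ribosomes. Kif14, a midbody kinesin with a high level throughout, was at 977 and 1064 at 0 h and 807 and 911 at 8 h (-0.25 ± 0.13, adjusted p 0.128). Kif15, which shares the work of Kif11, was near the bottom of the table, between 6.39 and 17.6 in all 10 libraries. Kif22, the chromokinesin Kid, was at 66.4 and 90.1 at 0 h and 72.6 and 48.0 at 8 h, with overlapping groups.

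**Figure D2:**
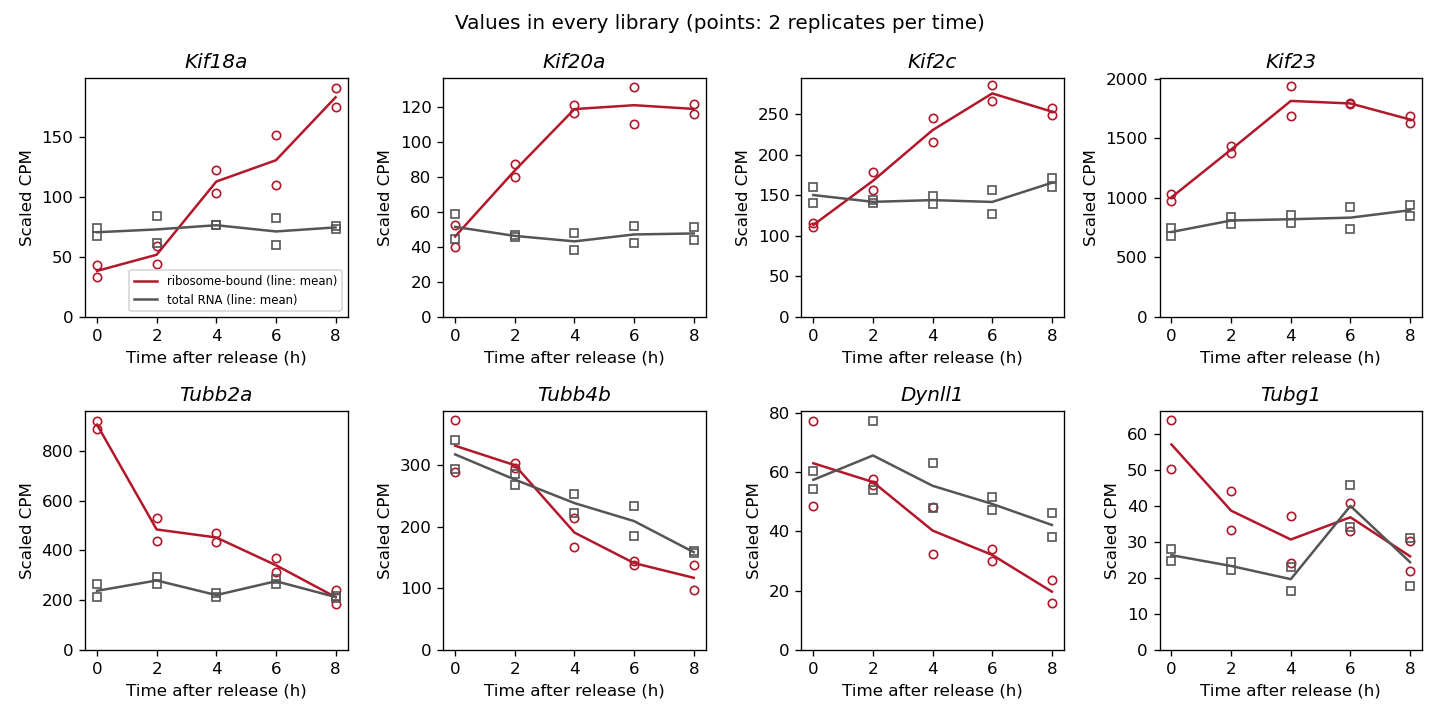
Values (scaled CPM, vertical axes from 0) against time after release (0 to 8 h) for 8 genes, with circles for the 2 ribosome-bound libraries and squares for the 2 total RNA libraries at each time and lines through their means. Ribosome-bound Kif18a, Kif20a, Kif2c and Kif23 climb. Total RNA of the first 3 shows no change past the threshold at 8 h, that of Kif23 goes from 681 and 747 to 942 and 851 (adjusted p 0.164), and ribosome-bound Tubb2a drops from 889 and 922 to 185 and 240.2.

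The 3′ ends of these mRNAs were examined because oocytes use cytoplasmic polyadenylation elements near the 3′ end of an mRNA, bound by CPEB, to lengthen the poly(A) tail. The letters TTTTAT or TTTTAAT were searched on the transcript strand in the last 150 bases of the annotated 3′ UTR (GENCODE vM21), in genes whose 3′ UTR fills that window. Of 6737 such genes on ribosomes, 27.7% held the element: 45.2% of those that rose at 8 h, 13.9% of those that fell and 26.3% of the rest. Among the 44 kinesin, dynein, dynactin and tubulin genes with a full window, 9 held it (20.5%). It was in 5 of 8 that rose (Kif18a, Kif2c, Kif11, Kif20b and Kif5b) and 1 of 18 that fell (Tubb2b). It was also in 3 of 18 that did not pass (Kif14, Kif26b and Kif9). None of the 8 dynein chains and 5 dynactin subunits held it. These shares are descriptions without a test, and a match in these letters is not a shown site of binding. The element holds only A and T, and over all genes the 8 h change had a Spearman correlation of -0.347 with GC content. How far the shares follow base composition was not tested. Kif11, Kif20b and Kif5b did not pass with the length and GC correction described below. A stretch of 30 bases around the element nearest to the annotated end is given for 4 kinesins that rose and for the single tubulin, with the element in capitals and the transcript strand read 5′ to 3′.
Kif18a: aatgtgctaataTTTTATtacttggtatat
Kif2c: aagcactcatgaTTTTATactttcagaaaa
Kif11: aattttttaaattaaattaTTTTAATtttt
Kif20b: cttgtatataaTTTTAATtcaataaatata
Tubb2b: aagttatatcatTTTTATgatgctgggaat
On mm10 these stretches are chr2:109341699-109341728 (plus strand) for Kif18a, chr4:117159755-117159784 (minus) for Kif2c, chr19:37421830-37421859 (plus) for Kif11, chr19:34975697-34975726 (plus) for Kif20b and chr13:34126761-34126790 (minus) for Tubb2b, all in the 3′ UTR of the last exon. The element ended 31 bases from the annotated end in Kif18a, 128 in Kif2c, 4 in Kif11, 21 in Kif20b and 25 in Tubb2b. Tubb2a and Tuba1b, which fell most, and Kif20a, Kif23 and Kif4, which rose, did not hold it in this window.

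Among transport and other kinesins, 12 of 15 did not pass at 8 h. Kif5b, the heavy chain of conventional kinesin, was the one that rose. On ribosomes it went through 12.6 and 11.1 at 0 h, 16.7 and 14.5 at 2 h, 19.9 and 24.6 at 4 h, 28.0 and 25.3 at 6 h, and 33.2 and 26.7 at 8 h, with no overlap from 2 h on. The change was 1.26 ± 0.32 (adjusted p 0.00469), and 0.75 with the length and GC correction (adjusted p 0.0818). Its paralog Kif5c was at 0.45 ± 0.22 and did not pass (adjusted p 0.108). Kif1b and Kif1c (vesicle carriers), Kif13a, Kif13b, Kif3b and Kif26b lay between 0.02 and 0.31, and Kif24, Kif16b, Kif3a, Kif21b and Kif9 between -0.35 and -0.59, none of them past the threshold.

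Kif17, best known as a kinesin of neuronal and ciliary transport, had the highest level per kilobase of this group at 0 h. It was at 356 and 376 at 0 h, 320.4 and 296 at 2 h, 266 and 280.5 at 4 h, 227 and 203 at 6 h, and 275 and 221 at 8 h. It fell by 0.57 on the log2 scale (SE 0.15, adjusted p 0.00667). It did not pass when 8 h replicate 2 was left out (-0.41) or with the length and GC correction (-0.19). Kif1bp had 129.8 and 83.2 at 0 h, 61.3 and 102 at 2 h, 70.2 and 61.2 at 4 h, 50.4 and 54.1 at 6 h, and 41.3 and 49.9 at 8 h, where both libraries lay below both at 0 h (-1.18 ± 0.26, adjusted p 0.0017).

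Among the dynein chains the 3 largest falls were those of the light chains Dynll1, Dynlrb1 and Dynll2, while the light chain Dynlt3 did not pass. Dynll1 and Dynll2 encode the LC8 light chains, which also serve as dimerization hubs of many other proteins. Ribosome-bound Dynll1 was at 48.6 and 77.4 at 0 h, 55.6 and 57.7 at 2 h, 32.4 and 48.1 at 4 h, 29.9 and 34.2 at 6 h, and 23.6 and 15.8 at 8 h. The 6 h and 8 h libraries lay below those at 0 h, with a change of -1.62 ± 0.30 at 8 h (adjusted p 0.000354). Dynll2 changed by -1.17 ± 0.19 (adjusted p 9.82e-05), from 195 and 250.0 to 100.4 and 94.8, and stood at -0.68 (adjusted p 0.0103) with the length and GC correction.

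Dynlrb1, the roadblock light chain, was the dynein gene with the highest level per kilobase at 0 h. The libraries gave 109.6 and 113 at 0 h, 101 and 100.4 at 2 h, 81.6 and 80.6 at 4 h, 67.2 and 84.3 at 6 h, and 47.6 and 42.2 at 8 h. It was below its 0 h libraries at every later time, by -1.29 ± 0.20 at 8 h (adjusted p 6.32e-05; -0.74 with the length and GC correction, adjusted p 0.00773). The motor subunit itself, Dync1h1, went from 75.1 and 77.3 to 42.6 and 48.2 (-0.74 ± 0.23, adjusted p 0.0153). The light intermediate chain Dync1li2 was at 14.1 and 19.9, then 7.80 and 6.46 (-1.13 ± 0.42, adjusted p 0.0389). Dync1h1 no longer passed when 0 h replicate 2 (-0.72) or 8 h replicate 1 (-0.65) was left out, nor with the length and GC correction (-0.49). Dync1li2 no longer passed when 0 h replicate 2 (-0.90), 8 h replicate 1 (-1.25) or 8 h replicate 2 (-1.01) was left out. It also missed the threshold when libraries were centred on their medians (-1.06, adjusted p 0.0503) and in the fit on the 4 libraries alone (adjusted p 0.0635). Dync1i2 (-0.09), Dynlt3 (-0.29) and Dync2h1, the motor of ciliary transport (0.18), did not pass.

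Among dynactin subunits, Dctn4 had the highest level per kilobase and the smallest adjusted p. On ribosomes it was at 173 and 174 at 0 h, 162 and 161 at 2 h, 102 and 138 at 4 h, 104 and 137 at 6 h, and 109.7 and 89.3 at 8 h. All later libraries lay below those at 0 h, and the 8 h change was -0.81 ± 0.20 (adjusted p 0.00325). Dctn5 and Dctn6, which sit together in the pointed-end complex, were low. Dctn5 had 18.1 and 30.5 at 0 h, 30.1 and 20.4 at 2 h, 24.1 and 17.1 at 4 h, 9.12 and 21.6 at 6 h, and 6.42 and 8.64 at 8 h (-1.54 ± 0.43, adjusted p 0.00801). Dctn6 had 10.2 and 16.1 at 0 h, 12.8 and 12.5 at 2 h, 24.8 and 11.8 at 4 h, 8.53 and 7.36 at 6 h, and 4.45 and 4.86 at 8 h (-1.30 ± 0.45, adjusted p 0.0288). In both, the 8 h libraries were the lowest of the series. Dctn5 did not pass when 0 h replicate 2 (-1.18) or 8 h replicate 1 (-1.35) was left out. Dctn6 did not pass when 0 h replicate 2 (-0.99), 8 h replicate 1 (-1.24) or 8 h replicate 2 (-1.35) was left out, with the length and GC correction (-1.16) or in the fit on 4 libraries (adjusted p 0.0595). Dctn1, the p150 subunit (-0.19), and Dctn2, dynamitin (-0.86, adjusted p 0.105), did not pass.

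Tubb2a, a beta-tubulin, had the highest level per kilobase of the 50 genes on ribosomes at 0 h and the largest fall. Its ribosome-bound values were 889 and 922 at 0 h, 529 and 439.6 at 2 h, 472 and 433 at 4 h, 369.8 and 312 at 6 h, and 185 and 240.2 at 8 h. Every later library lay below those at 0 h. The change was -0.91 at 2 h (adjusted p 0.00805) and -2.10 ± 0.16 at 8 h (adjusted p 3.37e-08), which is 4.28-fold lower, and -1.39 with the length and GC correction (adjusted p 1.01e-05). With 2 h replicate 2 left out, the 2 h change did not pass (-0.77, adjusted p 0.171). In total RNA Tubb2a was at 264 and 212 at 0 h, 292 and 267 at 2 h, 211 and 230.3 at 4 h, 267 and 286 at 6 h, and 218 and 208 at 8 h, with overlap between 0 h and 8 h. Tubb2a (ENSMUSG00000058672.6) lies on mm10 chromosome 13, 34074274 to 34078007.

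The other beta-tubulins fell as well. Tubb4b had 374 and 289.6 at 0 h, 296 and 304 at 2 h, 168 and 214 at 4 h, 137 and 145 at 6 h, and 137 and 97.1 at 8 h (-1.50 ± 0.19, adjusted p 9.85e-06; -0.88 with the length and GC correction). Tubb2b had 75.2 and 29.3 at 0 h, 62.2 and 43.9 at 2 h, 37.7 and 33.7 at 4 h, 24.6 and 28.3 at 6 h, and 14.2 and 13.6 at 8 h (-1.69 ± 0.36, adjusted p 0.00108). Tubb6 had 817 and 424 at 0 h, 432 and 366 at 2 h, 208 and 359 at 4 h, 376 and 246 at 6 h, and 347 and 291 at 8 h (-0.89 ± 0.27, adjusted p 0.014). In Tubb4b, Tubb2b and Tubb6 the 8 h libraries lay below those at 0 h, but the 0 h replicates of Tubb2b and Tubb6 were far apart. Without 0 h replicate 1 Tubb2b was at -1.03 (adjusted p 0.028) and Tubb6 at -0.42 (adjusted p 0.239). Without 0 h replicate 2 Tubb6 was at -1.36, and it also missed the threshold with 8 h replicate 2 left out (-0.76) and with the length and GC correction (-0.28). Tubb5 changed by -0.67 ± 0.19 (adjusted p 0.00871), which was -0.34 with that correction, -0.57 without 0 h replicate 1 and -0.41 without 8 h replicate 2, none of the 3 past the threshold.

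Of the 4 alpha-tubulins, 3 were lower at 8 h than at all earlier times. Tuba1b had 37.2 and 39.1 at 0 h, 30.7 and 29.8 at 2 h, 27.5 and 30.9 at 4 h, 22.7 and 21.9 at 6 h, and 9.08 and 12.3 at 8 h (-1.76 ± 0.30, adjusted p 0.000175; -1.10 with the length and GC correction). Tuba1c had 169.8 and 184 at 0 h and 76.9 and 87.9 at 8 h (-1.09 ± 0.17, adjusted p 8.11e-05; -0.47 with the correction, adjusted p 0.0452). In both genes no library at 8 h reached the lowest of any earlier time. Tuba4a had 199.9 and 119 at 0 h, 163 and 172 at 2 h, 146 and 210.2 at 4 h, 145 and 144 at 6 h, and 78.5 and 71.2 at 8 h (-1.04 ± 0.22, adjusted p 0.00127; -0.67 without 0 h replicate 1). Tuba3b was the tubulin that did not pass: its 0 h values of 11.5 and 13.7 and its 8 h values of 7.33 and 12.8 overlapped.

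Gamma-tubulin nucleates microtubules and is encoded by Tubg1 and Tubg2. Ribosome-bound Tubg1 (ENSMUSG00000035198.9, mm10 chromosome 11, 101119938 to 101126419) was at 63.9 and 50.3 at 0 h, 33.3 and 44.1 at 2 h, 24.2 and 37.2 at 4 h, 40.7 and 33.1 at 6 h, and 21.9 and 30.2 at 8 h. All 8 later libraries lay below both at 0 h, without a steady course from 2 to 6 h. The changes were -0.89 at 4 h (adjusted p 0.0484), -0.61 at 6 h (adjusted p 0.132) and -1.11 ± 0.30 at 8 h (adjusted p 0.00602). The 8 h change missed the threshold with 8 h replicate 1 left out (-0.89, adjusted p 0.0682) and with the length and GC correction (-0.47, adjusted p 0.22). The 4 h change did so with 0 h replicate 1 (-0.72), 0 h replicate 2 (-1.06) or 4 h replicate 1 (-0.60) left out, with the length and GC correction (-0.61), with libraries centred on their medians (-0.87) and in the fit on 4 libraries (adjusted p 0.108).

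In total RNA, Tubg1 was at 24.6 and 28.1 at 0 h, 24.5 and 22.2 at 2 h, 16.4 and 23.0 at 4 h, 45.9 and 34.2 at 6 h, and 17.8 and 31.0 at 8 h, with 0 h and 8 h overlapping. Its 6 h libraries were the highest of that table. Ribosome-bound Tubg2 was higher in level, at 641 and 339 at 0 h and 246 and 338 at 8 h. Its change of -0.69 ± 0.24 (adjusted p 0.0284) depended on the 0 h pair: with 0 h replicate 1 left out it was -0.23 (adjusted p 0.437), and with 0 h replicate 2 left out -1.15. It also missed the threshold with 8 h replicate 1 left out (-0.46), with libraries centred on their medians (-0.62), in the fit on 4 libraries (adjusted p 0.0598) and with the length and GC correction, which put it at 0.02.

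At 2 h Kif20a (up) and Tubb2a (down) had passed, 2 of 50 where 1.47% of all genes were called (0.729% up and 0.742% down). By 4 h 12 of 50 were past the threshold, with 15.7% of all genes called (9.16% up and 6.56% down). These were 7 spindle kinesins up, and Kif2a, Tubb2a, Tubb4b, Tubb6 and Tubg1 down. At 6 h it was 20 of 50, with 27.9% of all genes called (14.6% up and 13.3% down). Of these 8 rose and 12 fell, including the first dynein chains (4), dynactin subunit (Dctn4) and transport kinesins (3). Among these dynein, dynactin and transport kinesin genes, Dync1h1 and Kif17 alone kept their call without each library in turn. Dynlrb1 lay between -0.72 and -0.40 with 1 library left out, and Dctn4 between -0.74 and -0.34. With libraries centred on their medians, both missed the threshold (adjusted p 0.0657 and 0.0752 in limma). The 7 rising spindle kinesins were all past the threshold at 4 h. Of the 10 tubulins that fell at 8 h, 4 passed for the first time at 8 h (Tuba1b, Tuba4a, Tubb2b and Tubb5). No test compared the timing between groups, and the comparisons share their 0 h libraries. The largest changes were 1.54 for Kif18a and -1.10 for Tubb6 at 4 h, and 1.73 for Kif18a and -1.41 for Tubb2a at 6 h. Without 4 h replicate 1, the library that stood apart, 6 of 50 passed at 4 h (Kif18a, Kif20a, Kif2c, Kif23, Kif4 and Tubb2a), and Tubb6 was at -0.71 (adjusted p 0.202; -0.63 without 0 h replicate 1). At 6 h 13 of 50 passed without 0 h replicate 1 and likewise without 6 h replicate 1, and 10 without 6 h replicate 2.

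Fewer changes passed in total RNA. At 6 h none of 48 genes passed in limma, with 0.202% of all 7917 genes called (0.177% up and 0.0253% down); 5 of the 48 had an unadjusted p under 0.05, all lower. At 8 h 4 of 48 fell and none rose, with 3.97% of all genes called (0.947% up and 3.02% down). The median change of the 48 genes at 8 h was -0.17, against 0.01 over all genes. Tubb4b fell on both sides: its total RNA values were 341 and 294 at 0 h, 285 and 268 at 2 h, 254 and 223 at 4 h, 233 and 185 at 6 h, and 157 and 161 at 8 h (-0.99 ± 0.15, adjusted p 0.000816). Kif22 fell in total RNA, from 168 and 114 at 0 h through 132 and 139, 105 and 118, and 99.4 and 90.3 to 51.4 and 69.8 at 8 h (-1.19 ± 0.20, adjusted p 0.00177). The 8 h libraries of both genes lay below all earlier ones. Tuba4a fell from 200.2 and 206 to 89.1 and 116 (-0.99 ± 0.19, adjusted p 0.00498), with 182 and 187, 168 and 139, and 164 and 108 in between, and Dynlrb1 from 178 and 136 to 95.5 and 84.7 (-0.78, adjusted p 0.0204).

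Of these 4, Tubb4b alone was past the threshold without each library in turn, and without 0 h replicate 1 it was the only gene of the 48 to pass. Kif22 missed it with 0 h replicate 1 left out (-0.92, adjusted p 0.0896). Tuba4a missed it with 0 h replicate 1 (-1.01), 0 h replicate 2 (-0.97) or 8 h replicate 1 (-0.80) left out. Dynlrb1 missed it with 0 h replicate 1 (-0.59) or 8 h replicate 2 (-0.70) left out, with the length and GC correction (-0.50) and in the fit on 4 libraries (adjusted p 0.0598). Kif18a (0.08, adjusted p 0.883), Kif20a (-0.10), Kif2c (0.14), Tubb2a (-0.15) and Tubg1 (-0.15, adjusted p 0.845) did not pass in total RNA.

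**Figure D3:**
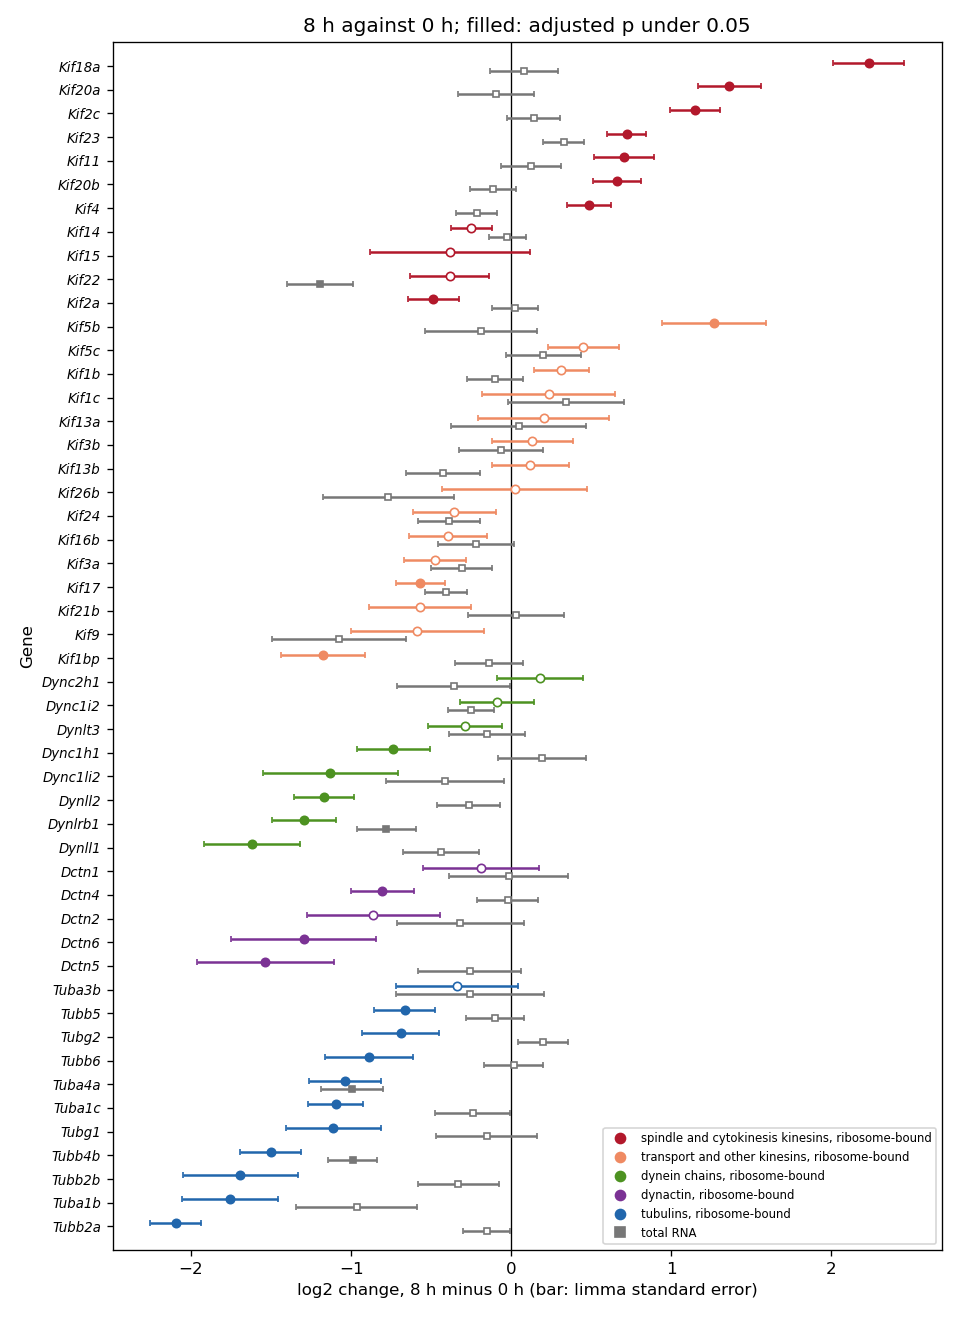
Log2 change at 8 h against 0 h for the 50 genes (rows, sorted within role group), with coloured circles for ribosome-bound mRNA and grey squares for total RNA. Bars are limma standard errors and filled symbols have an adjusted p under 0.05. Circles of the spindle kinesins lie up to 2.23 to the right and those of the tubulins down to -2.10 to the left, while 4 squares are filled.

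The change on ribosomes beyond that in total RNA was tested as an interaction in 1 model over all 20 libraries. It passed for 14 of 48 genes, 6 up and 8 down, where 21% of all 7346 genes passed (11.6% up and 9.43% down). Spindle kinesins accounted for 5 of the 6 that were higher: Kif18a (2.15 ± 0.31, adjusted p 2.6e-05), Kif20a (1.46 ± 0.30, adjusted p 0.0011), Kif2c (1.01 ± 0.21, adjusted p 0.00145), Kif20b (0.78) and Kif4 (0.70). Kif5b was the sixth (1.45 ± 0.47, adjusted p 0.0281). Tubulins accounted for 4 of the 8 that were lower, namely Tubb2a (-1.94 ± 0.21, adjusted p 6.26e-07), Tubb2b (-1.36), Tubg2 (-0.89) and Tuba1c (-0.85), beside Dynll1 (-1.18), Kif1bp (-1.04), Dynll2 (-0.90) and Dctn4 (-0.79). For Tubg1 (-0.96 ± 0.44, adjusted p 0.127), Kif23 (0.39, adjusted p 0.104), Kif11 (0.58, adjusted p 0.119) and Tubb4b (-0.51, adjusted p 0.149) the 2 RNA kinds could not be shown to differ.

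Kif18a, Kif20a, Kif2c and Tubb2a passed under every alternative run. The other 10 missed the threshold in at least 1 fit with a library left out.

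Among the kinesins, Kif4 was at 0.53 with ribosome-bound 8 h replicate 2 left out, and Kif20b at 0.63 (0.24 with the length and GC correction). Kif5b was at 1.37 with ribosome-bound 0 h replicate 2 left out, 1.30 with ribosome-bound 8 h replicate 1, 1.33 with total RNA 0 h replicate 2 and 1.07 with total RNA 8 h replicate 1, and at 1.02 with the correction. Kif1bp was at -0.72 with ribosome-bound 0 h replicate 1 left out, -0.91 with ribosome-bound 8 h replicate 1, -0.99 to -1.09 with each of the 4 total RNA libraries, and -0.96 with the correction.

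Among the dynein and dynactin genes, Dynll1 was at -0.85 and -0.90 with replicate 2 of ribosome-bound 0 h and of 8 h left out. With total RNA 0 h replicate 1, 0 h replicate 2 or 8 h replicate 1 left out, it was at -1.26, -1.10 or -1.04. Dynll2 was at -0.73 and -0.86 with replicate 2 of ribosome-bound 0 h and of 8 h left out, -0.85 with total RNA 0 h replicate 2, -0.87 with total RNA 8 h replicate 1, and -0.62 with the correction. Dctn4, at the edge of the threshold, missed it in 6 of the 8 fits with a library left out (all but those without ribosome-bound 8 h replicate 1 or total RNA 0 h replicate 2) and lay between -0.59 and -0.98 over the 8.

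Among the tubulins, Tuba1c was at -0.80 with ribosome-bound 0 h replicate 2 left out, -0.76 with ribosome-bound 8 h replicate 1, -0.70 with total RNA 0 h replicate 2, -0.73 with total RNA 8 h replicate 1, and -0.45 with the correction. Tubb2b passed in 1 of 8 such fits, the one without ribosome-bound 0 h replicate 2. It was at -0.69 without ribosome-bound 0 h replicate 1 and at -1.18 with the correction (adjusted p 0.0722). Tubg2 passed in 2 of 8, those without ribosome-bound 0 h replicate 2 (-1.35) or ribosome-bound 8 h replicate 2, and was at -0.43 without ribosome-bound 0 h replicate 1. It also missed the threshold with the correction (-0.42, adjusted p 0.354) and with libraries centred on their medians (-0.84, adjusted p 0.0654). Of the 48 genes, 9 passed without ribosome-bound 8 h replicate 2 and likewise without total RNA 0 h replicate 1, 8 without total RNA 0 h replicate 2 and 6 without total RNA 8 h replicate 1.

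Levels were also expressed per kilobase of exon, where exon length takes in all annotated exons of a gene. This length can exceed that of a transcript. For Kif23 it was 7901 bases, and the transcript searched for shared sequence below had 3398. For Kif4 these lengths were 5514 and 4983, for Tubb6 2437 and 1758, and for Tubb2a 1610 and 1610. Levels on transcript length were not computed, so the rankings and sums hold for exon length alone. On ribosomes at 0 h the highest means were those of Tubb2a (562), Tubg2 (279), Tubb6 (255), Tubb4b (159), Kif23 (127) and Kif4 (119.5). The 0 h replicates of Tubg2 and Tubb6, of Tubb6 and Tubb4b, and of Kif23 and Kif4 overlapped. At 8 h Kif23 (209.8) and Kif4 (168) were at the top beside Tubg2 (166), with Tubb2a at 132. Summed over the 11 tubulins the level was 1700.2 and 1301 at 0 h and 580.4 and 624 at 8 h on ribosomes, and 807 and 742 against 650.2 and 665 in total RNA. For the spindle kinesins the sums were 496 and 526 at 0 h and 681 and 749 at 8 h on ribosomes. At 0 h the tubulin sum was above that of the spindle kinesins in both ribosome-bound libraries, and at 8 h it was below it in both. The 5 beta-tubulins summed to 1152 and 944 at 0 h and 367 and 347 at 8 h, and the 4 alpha-tubulins to 155 and 141 and then 63.8 and 71.4. The dynein chains went from 256 and 275 to 137 and 129, and dynactin from 32.9 and 37.6 to 18.2 and 16.7. These sums are descriptions without a test.

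**Figure D4:**
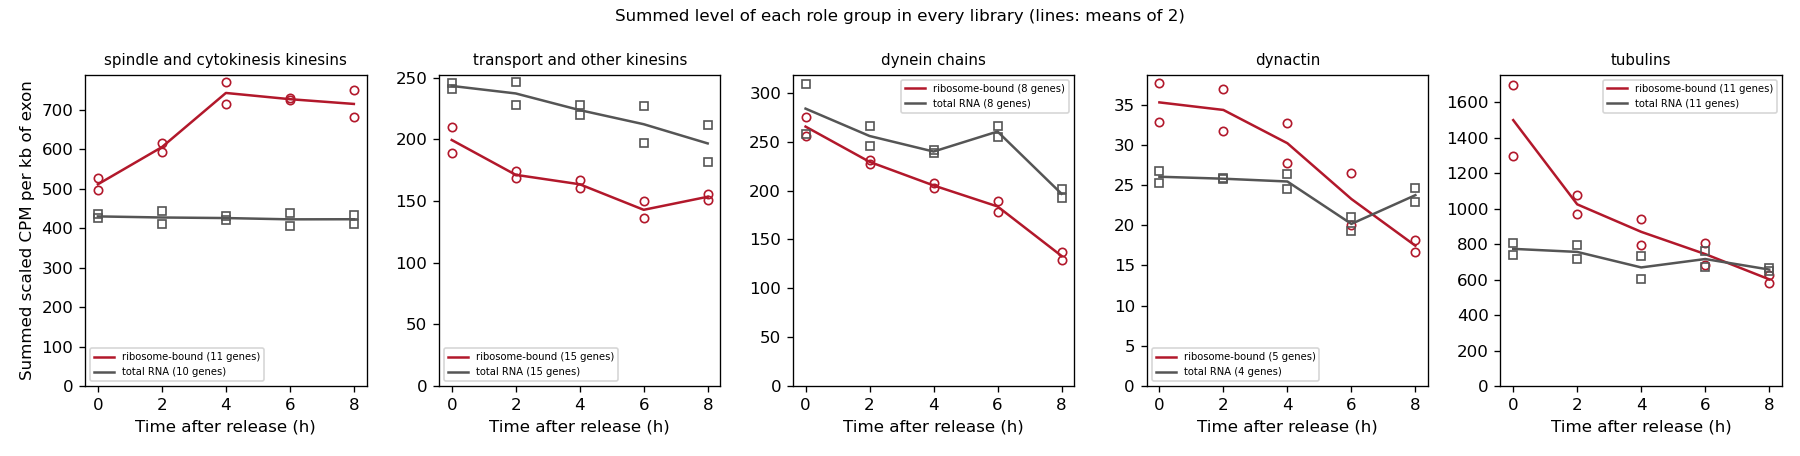
Summed level of each role group in scaled CPM per kilobase of exon (vertical axes from 0, 1 panel per group) against time after release, with circles for ribosome-bound libraries, squares for total RNA libraries and lines through the means of 2. The tubulin panel drops on ribosomes from 1700.2 and 1301 to 580.4 and 624, and the panel of spindle and cytokinesis kinesins climbs from 496 and 526 to 681 and 749.

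Length and base composition moved with these changes. The median exon length was 2266 bases for the tubulins and 6957 for the spindle kinesins, with 5059 over all genes. Of the 50 genes, the 8 that rose at 8 h had a median of 7209 bases and a GC content of 44.3%. The 21 that fell had 2736 bases and 52.6%. Across the 50 genes the ribosome-bound change at 8 h had a Spearman correlation of 0.595 with exon length and -0.42 with GC content, and across 7532 genes 0.204 and -0.347. Genes are not independent replicates, so these are descriptions with no p. With a correction for both (a smooth fit of each library's deviations on length and GC), 21 of the 50 genes passed at 8 h, 5 up and 16 down, with 37.4% of all 7532 genes called in the same fit (19.2% up and 18.2% down). Of the tubulins 6 of 11 fell, with a median of -0.47, and of the spindle kinesins 5 of 11 rose and 2 fell, with a median of 0.26. Whether this relation comes from library preparation was not tested.

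**Figure D5:**
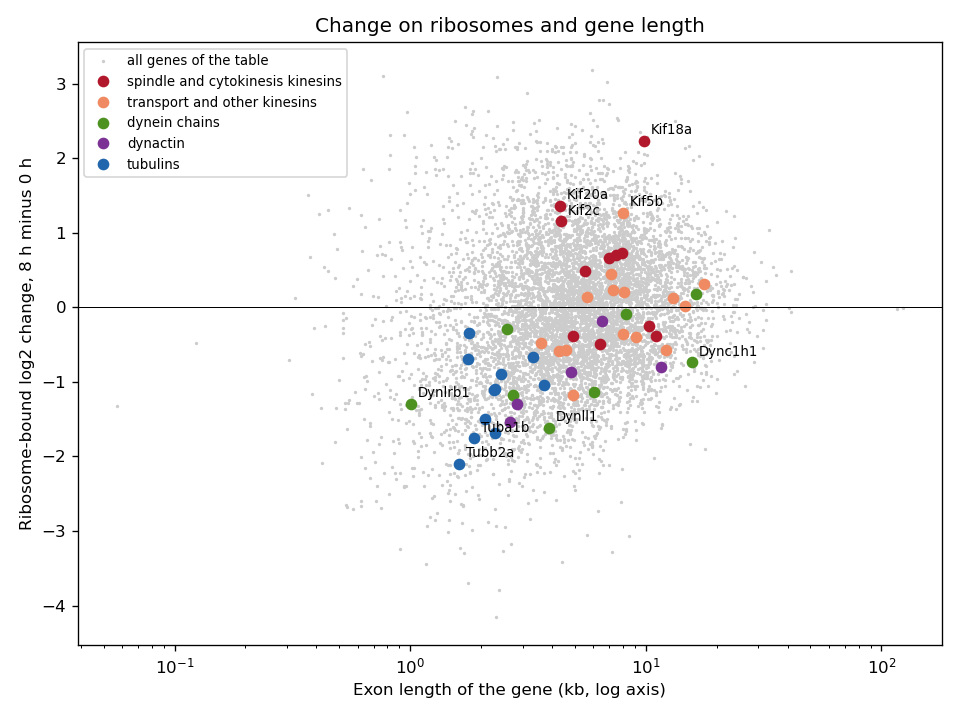
Ribosome-bound log2 change at 8 h against 0 h (vertical axis) against exon length in kilobases (horizontal log axis), with grey dots for all genes and coloured points for the role groups. The tubulins lie low at the short end (median 2266 bases) and the spindle kinesins that rose lie to the right of them (median of the group 6957 bases).

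Some of these genes share sequence or overlap others, and the sources used here do not give the counting rule or whether strand was kept. The share of 50-base windows also present in transcripts of another gene was 83.1% for Tuba1b and 61% for Tuba1c, which resemble each other, 55.5% for Tubb4b, 49.6% for Tubb2a and 39.3% for Tubb2b. It was 14.1% for Tubg1 and 14.3% for Tubg2, and 22 of the 50 genes had none, Tubb6 among them. Tubb5 had 0.115%. The split of reads between Tuba1b and Tuba1c, between Tubb2a and Tubb2b, and between Tubb4b and its pseudogenes is therefore uncertain. Tuba4a overlaps Stk16 on the opposite strand over 37.3% of its exon bases, Kif20a overlaps Cdc23 over 29.3%, Tuba1b overlaps Gm49450 on the same strand and Gm41396 on the opposite strand over 27.4%, Kif2a overlaps Dimt1 over 19.2% and Kif4 overlaps Pdzd11 over 15.1%, with 11.8% for Dctn6 and 10.1% for Kif1bp, so reads of these pairs may be mixed. Kif18a overlaps another gene over 0.112% of its exon bases and Kif2c and Kif23 over none.

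Genes that work with these motors and with tubulin were counted from 4 lists. On ribosomes at 8 h, 21.8% of all genes fell and 20.2% rose. For tubulin folding and modification, 10 of 21 measured genes fell there and 1 rose, with a median of -0.88. Among those that fell were the tubulin cofactors Tbca (-1.40), Tbcb (-2.12) and Tbcc (-1.84), and their regulator Arl2 (-2.21). The other 6 were subunits of the CCT chaperonin that folds tubulin and actin, led by Cct3 (-1.86). Cct8, 1 of these 6, was at -0.60, and between -0.75 and -0.44 with 1 library left out. In total RNA 4 of 22 genes of this list fell, among them Tbcb (-1.62) and Cct3 (-1.09, lost without 2 of the 4 libraries of the comparison), and the median was -0.32, where 3.02% of all genes fell. Beyond total RNA 3 of 21 were lower, namely Arl2, Tbca and Tcp1, against 9.43% of all genes.

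For the gamma-tubulin ring and microtubule end binding, 10 of 27 measured genes rose and 4 fell, with a median of 0.15. Over all genes 20.2% rose and 21.8% fell. Fignl1, a relative of microtubule-severing enzymes (1.78 ± 0.24), Nedd1, which recruits the gamma-tubulin ring (1.12 ± 0.16), Ckap2 (1.12 ± 0.17) and the end-binding protein gene Mapre1 (0.90 ± 0.16) rose. Tubgcp2, a core subunit of the ring, fell (-1.76 ± 0.34), between -1.14 and -2.37 without 1 library. Haus8 (-1.04 ± 0.25), Haus4 (-0.64 ± 0.19) and Clasp1 (-0.57 ± 0.16) fell too, and each missed the threshold in 1 fit with a library left out. With the length and GC correction Haus4 was at -0.05, and Ckap5, which had risen by 0.52, was at 0.18. None of 28 genes of this list passed in total RNA at 8 h in limma (7 had an unadjusted p under 0.05), and 5 of 27 were higher and 3 lower beyond it, against 11.6% and 9.43% of all genes. Of 16 dynein regulators and adaptors 2 rose (Capza2 and Spdl1) and 2 fell (Capzb and Zwilch). Of 5 other motors and kinesin partners 1 rose (Kifc1, a minus-end motor) and 1 fell (Klc2, a kinesin light chain). Kifc1 (0.99) missed the threshold with any 1 of its 4 libraries left out (0.89 to 1.09), and was at 1.48 with the length and GC correction. Capza2 (1.20) and Capzb (-1.17) missed it with that correction (0.57 and -0.85). Capzb also did so without 0 h replicate 1 or 8 h replicate 2. Read against 20.2% up and 21.8% down over all genes, the shares of the last 2 lists were at or below the background.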

How the data were processed

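Ribosome-bound mRNA and total RNA of 20 samples were analysed. The values are a signal: CPM per gene that the authors deposited after scaling each library by its own factor (totals 968768 to 1052767). Trimmomatic 0.36, HISAT2 and HTSeq, beside FastQC, SAMtools, limma and edgeR, and the build mm10, are listed in the submitters' processing notes; strand and counting rule are not given in these sources.

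Tests used log2(value + 1) and kept genes at 1 or more in at least 2 libraries. limma 3.58.1 (R 4.3.3) with a mean-variance trend was fitted over all genes and all 5 times, with no replicate block, two-sided, with Benjamini-Hochberg adjustment over all genes and a threshold of 0.05. The model was also run on simulated data with independent noise for each gene and few changed genes. That simulation held no outlying library and no length or GC trend, so it does not show how the model behaves on these data. GENCODE vM21 gave exon lengths, GC content and 3′ UTRs by gene ID; of the 50 genes, 33 had the same ID version and 17 another.

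Genes with every library's value were named by a rule: Kif18a, Tubg1, the largest changes of each comparison, and the highest level of each role group. The genes, role groups, partner lists and this rule were chosen with earlier results of these data known. The plan had assumed plain CPM; its test on log2 values was kept.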

Additional observations from a re-analysis of the deposited data

Results flagged for a closer look

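For 14 of the 48 genes in both tables, the change from 0 to 8 h differed between ribosome-bound mRNA and total RNA by a test of the difference itself (the limma interaction, adjusted p under 0.05, against 21% of all genes). The difference on the log2 scale, ribosome-bound minus total RNA, was 2.15 for Kif18a, 1.46 for Kif20a, 1.45 for Kif5b, 1.01 for Kif2c, 0.78 for Kif20b and 0.70 for Kif4. It was -0.79 for Dctn4, -0.85 for Tuba1c, -0.89 for Tubg2, -0.90 for Dynll2, -1.04 for Kif1bp, -1.18 for Dynll1, -1.36 for Tubb2b and -1.94 for Tubb2a. In 5 of them (Kif20a, Kif5b, Kif20b, Kif4 and Tubg2) the fitted changes had opposite signs in the 2 RNA kinds, but none of the total RNA changes passed, from -0.22 for Kif4 to 0.20 for Tubg2. The values without single libraries are given with the comparison above.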

How the results depend on the processing

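Each comparison was repeated with a pseudocount of 5 or 0.5, no filter, a value of at least 10 in at least 2 libraries, libraries centred on their medians, a length and GC correction, the replicate block, the block with that correction, the fit on the 4 libraries compared alone (not for the interaction), and without each library. Of the 50 genes, 2 passed on ribosomes at 2 h; it was 1 with the replicate block (all genes 57 against 111), 0 with the block and correction, 1 in the fit on 4 libraries, and 0 to 2 without 1 library. At 4 h 12 passed, and 6 to 13 without 1 library; at 6 h 20, with 13 under the block and correction and 10 to 16 without 1 library; at 8 h 29, with 22 to 25 without 1 library. In total RNA 4 passed at 8 h, and 1 to 5 without 1 library. Beyond total RNA 14 passed, with 9 under the correction, 8 with the block as well, and 6 to 11 without 1 library. The correction, alone or with the block, turned Kif20b at 6 h to -0.0033, Tubg2 at 8 h to 0.0245, and the uncalled total RNA changes at 8 h of Kif18a to -0.0297 and Tubg1 to 0.0626; Tubg1 was also between -0.5379 and 0.2309 without 1 library. The cause was not tested. On ribosomes at 8 h, 4 of the 8 that rose and 10 of the 21 that fell passed in every alternative.

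Over all genes, counts moved by over 1.5 times at 2 h (111 genes; 60 with block and correction, 38 in the fit on 4 libraries, 15 and 16 without a 2 h replicate, 171 without 0 h replicate 1), at 4 h (1186; 572 in the fit on 4 libraries, 461 without 4 h replicate 1), at 6 h (2108; 1267 and 1269 without a 6 h replicate) and in total RNA at 8 h (314; 164 in the fit on 4 libraries, 52 without 0 h replicate 1). Centring on medians gave 1677 up and 1487 down at 8 h, where the main split was 1525 and 1648. Differences between replicates correlated little by letter, at -0.107 to 0.049 between times on ribosomes and -0.047 to 0.115 in total RNA. Between RNA kinds the range was -0.084 to 0.036. These correlations cannot show whether samples that share a letter came from the same preparation. The planned test on reads recovered from the value steps was not run.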
